A study of Bos taurus with 60 samples.

Results

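The distal jejunum of super-shedders (SS) was compared with that of non-shedders (NS) over 10 of the 60 small RNA libraries of the series, which covers 6 intestinal regions of 10 feedlot steers. The members were the 5 SS and 5 NS libraries labelled as distal jejunum, and the comparison was made over every miRNA with CPM (counts scaled to the library total) above 1 in at least 3 libraries of either phenotype. This held for 338 of the 608 listed miRNAs. The other 270 were not tested, and 77 of them had no count in any distal jejunum library. Of the 338, 22 passed through the NS libraries alone and 9 through the SS libraries alone, so these had to differ to some degree and their calls are no independent support for a difference. Just inside the limit, 21 miRNAs reached CPM above 1 in exactly 3 libraries of the better phenotype, with mean levels of 0.942 to 2.47 CPM. Just outside it, 41 miRNAs did so in exactly 2, with mean levels of 0.267 to 2.99 CPM.

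SS steers (SS274, SS287, SS294, SS299 and SS310) shed E. coli O157 in feces above the count that defines super-shedding, and NS steers (NS108, NS152, NS165, NS242 and NS745) were pen-mates whose feces were negative. All were crossbred feedlot steers, and each gave 1 distal jejunum library. The SS phenotype was set by fecal counts taken days before slaughter, and most SS steers were positive but below the super-shedder level when the tissue was taken. The region is that of the tissue label, although the extraction text of every sample speaks of the rectum. RNA came from ground pieces of intestinal tissue, so the libraries mix epithelium, smooth muscle, immune cells, vessels and nerves. In such bulk tissue, fewer cells of a type and less miRNA per cell cannot be told apart. Which miRNAs differ between the phenotypes in this region was the question of the comparison.

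miRNAs are short RNAs cut from hairpin precursors that guide Argonaute proteins to messenger RNAs, which are then translated less and degraded. Target choice rests mainly on the seed near the 5′ end, so miRNAs that share a seed form families. Many are made together from clusters in the genome, and several mark a cell type. In the gut, miR-143 and miR-145 belong to smooth muscle and other mesenchymal cells, miR-192, miR-194 and miR-215 to the absorptive epithelium, the miR-200 family to epithelia in general, miR-375 to endocrine cells, and miR-142 to leukocytes. The jejunum absorbs nutrients and carries patches of lymphoid tissue, whereas the recto-anal junction is the known site of E. coli O157 colonization in cattle. Mature sequences are not shown here, and members were not grouped by seed.

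The libraries differed in depth and in the levels of cell type markers. Totals ranged from 786345 to 6569141 counts in SS and from 535373 to 2078215 in NS, so 3 counts, the most that a count of 0 allows for, stood at 0.457 CPM in the deepest library (SS299) and 5.60 CPM in the shallowest (NS108). These limits cover counting error only. The library of SS299 stood apart from the others. Its 8 epithelial miRNAs summed to 2477 CPM, against 58739 to 321536 CPM in the other SS libraries and 136695 to 207412 CPM in NS. Its 6 leukocyte miRNAs summed to 367 CPM, against 3927 to 32754 CPM in the other SS libraries and 8524 to 19222 CPM in NS. SS294 was the next lowest in both sums. The endothelial (2070 CPM), erythrocyte (193 CPM), mesenchymal (1263 CPM), neuronal (98.8 CPM) and enteroendocrine (67.4 CPM) sums were lowest in SS299 too. These low sums are therefore not particular to epithelium and leukocytes. No epithelial marker was at 0 in SS299, which had 2163 CPM of bta-miR-192. Smooth muscle miRNAs summed to 168408 to 581347 CPM in SS and 264761 to 494774 CPM in NS. The pancreas and liver markers were at or near 0 in every library, at most 3.88 CPM. Results that rest on SS294 or SS299 are given with and without them. Beyond a fit with the epithelial sum as a covariate, the part of tissue make-up in these results was not tested.

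Few miRNAs passed a test between the phenotypes, and most of those were lower in SS. The quasi-likelihood test of edgeR with TMM normalization called 2 of 338 miRNAs at an FDR of 10% (0.592%), and both, bta-miR-378b and bta-miR-2284j, were lower in SS. Of these, bta-miR-2284j had entered the test through NS alone. An unadjusted p under 0.05 was reached by 34. The exact test of edgeR called 8 (2.37%), of which 1 was higher and 7 were lower in SS. The study also lists 8 for this region by the exact test, but the lists are not the same. Its bta-miR-409a was not called here, nor were its bta-miR-99a-5p or its bta-miR-99b. Called here but absent from its list were bta-miR-6123, bta-miR-18b and bta-miR-296-3p. DESeq2 called 14 (4.14%), of which 5 were higher and 9 lower. The exact test and DESeq2 each called bta-miR-2284j, bta-miR-2284d and bta-miR-18b, which had entered through NS alone. Without the SS294 and SS299 libraries the quasi-likelihood test called 0 (lowest adjusted p of 0.236, with 32 under 0.05 before adjustment). The exact test then called 1, bta-miR-378b. All fold changes below are SS over NS from edgeR after TMM unless another scale is named, while CPM are per library total. The TMM factors were 0.343 to 1.55 in SS and 0.969 to 1.78 in NS, with the lowest in SS299. Scaling by library total alone moved the median log2 fold change of the 338 miRNAs to -0.30, against 0.06 after TMM, so low positive and negative values depend on the scale.

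**Figure D1:**
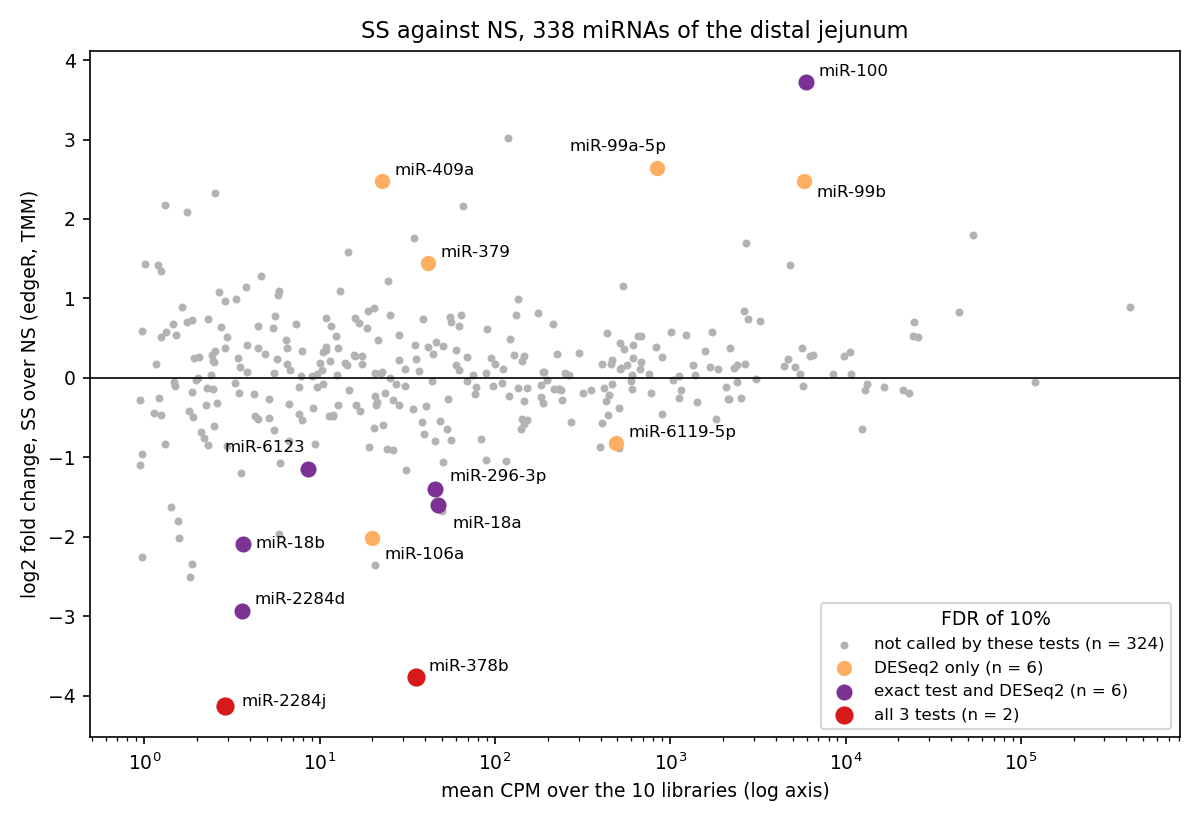
Each point is a tested miRNA, with its mean CPM over the 10 libraries on a log x axis and its log2 fold change of SS over NS (edgeR, TMM) on the y axis. Colours mark calls at an FDR of 10% by all 3 tests, by the exact test and DESeq2, or by DESeq2 alone; bta-miR-2284j (-4.13) and bta-miR-378b (-3.77) lie lowest and bta-miR-100 (3.72) lies highest.

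The miRNA bta-miR-378b belongs to the miR-378 family, whose best known member is made from an intron of a regulator of mitochondrial metabolism in mammals. It stood at 3.85, 10.2, 1.73, 1.52 and 3.12 CPM in SS274, SS287, SS294, SS299 and SS310, against 110, 55.3, 109, 52.1 and 5.82 CPM in NS108, NS152, NS165, NS242 and NS745. The SS steers were all low, 4 NS steers were high, and NS745 was as low as the SS steers, so the groups overlapped through that steer. The mean was 4.08 ± 3.54 CPM in SS and 66.4 ± 43.9 CPM in NS (SD, n = 5 each). The log2 fold change was -3.77 (standard error, SE, 0.64, adjusted p = 0.0272 by the quasi-likelihood test of edgeR). The raw counts were 9, 8, 6, 10 and 5 in SS, against 59, 115, 142, 76 and 6 in NS. Summed over libraries, 38 counts in SS stood against 398 in NS, a ratio of 0.0415 per count sequenced (95% exact interval 0.0289 to 0.0579, counting error only). This ratio weights the libraries by depth, and SS299 held 6569141 of the 14766003 SS counts, so it differs from the ratio of the means. The exact test and DESeq2 also called bta-miR-378b (adjusted p = 2.06e-05 and 8.83e-07), and limma-voom did not (adjusted p = 0.166). In the quasi-likelihood test of edgeR the call was lost without SS274, SS294 or SS310 (adjusted p = 0.107, 0.119 and 0.108), at log2 fold changes of -3.84, -3.68 and -3.65, and it was stronger without NS745 (-4.06, adjusted p = 0.000272). Without both SS294 and SS299 the log2 fold change was -3.68.

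The other 3 members of the miR-378 family did not pass a test. The most abundant, bta-miR-378, ranged from 3268 to 8044 CPM in SS and from 4165 to 7419 CPM in NS. The other 2, bta-miR-378c and bta-miR-378d, had ranges of 58.3 to 212 and 3.50 to 29.2 CPM in SS, against 104 to 220 and 4.11 to 16.1 CPM in NS. Their log2 fold changes were 0.37 for bta-miR-378 (adjusted p = 0.592), 0.28 for bta-miR-378c (adjusted p = 0.639) and 0.35 for bta-miR-378d (adjusted p = 0.824) by quasi-likelihood in edgeR. With the library total as the scale those of bta-miR-378 and bta-miR-378c turned negative, and the median of the 4 members was -0.10, against 0.32 after TMM. In the RefSeq annotation of the assembly ARS-UCD2.0, MIR378B lies between THY1 and NECTIN1, outside any listed gene. The build used for the counts is not given in the sources used here.

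**Figure D2:**
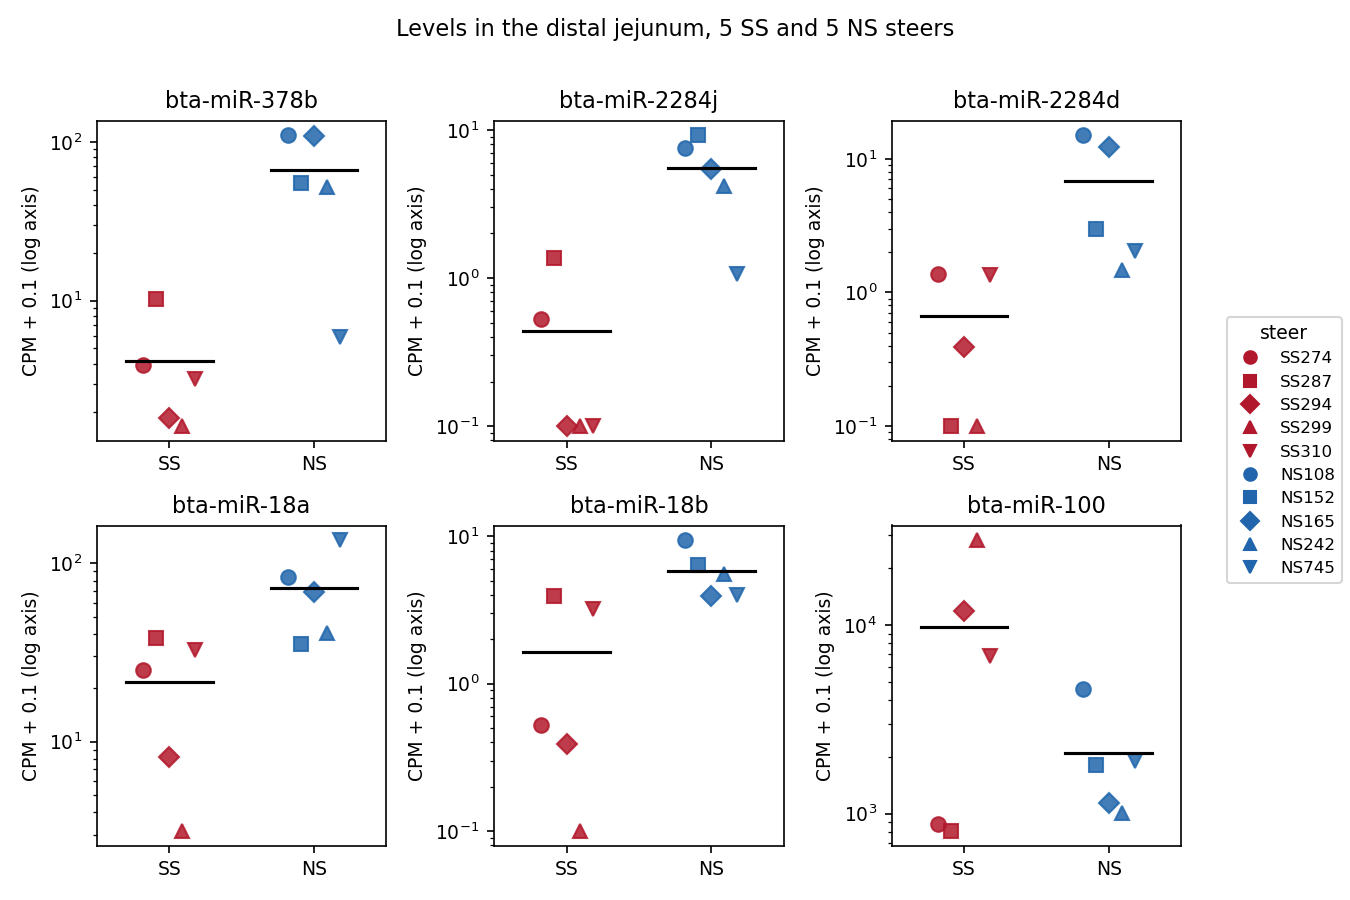
Levels of 6 miRNAs in the distal jejunum, as CPM + 0.1 on a log y axis, with SS steers on the left and NS steers on the right of each panel; each symbol is a steer and each bar a group mean. The SS and NS values of bta-miR-2284d and bta-miR-18b do not overlap, NS745 lies among the SS steers for bta-miR-378b, and SS294, SS299 and SS310 lie above all NS steers for bta-miR-100.

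The 2 members of the miR-2284 family with lower levels in SS were rare. The miR-2284 and miR-2285 miRNAs form a large family known from ruminants, with many near-identical copies, so that reads of a copy can be assigned to another. In SS, bta-miR-2284j was at 0.428 and 1.27 CPM in SS274 and SS287 and had no count in SS294, SS299 and SS310. In NS it was at 7.47, 9.14, 5.35, 4.11 and 0.97 CPM in NS108, NS152, NS165, NS242 and NS745. Here too NS745 was the low NS steer, and the groups overlapped through NS745 and SS287. It was above 1 CPM in 1 SS and 4 NS libraries and so was tested only because of its level in NS, so it had to be lower in SS to some degree. In all, 2 counts were seen in SS and 37 in NS, a ratio of 0.0235 per count sequenced (95% exact interval 0.00274 to 0.0910). This ratio too weights the libraries by depth, and its interval covers counting error only. The log2 fold change was -4.13 (SE 0.82, adjusted p = 0.0530 by quasi-likelihood in edgeR), a fitted value that depends on the prior count. The call held without SS287 or NS745 and was lost without any other steer. The exact test kept it without each steer in turn (adjusted p = 2.71e-05 to 0.0452) and lost it without both SS294 and SS299 (adjusted p = 0.149).

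A related miRNA, bta-miR-2284d, did not overlap between the groups. It was at 1.28, 0, 0.288, 0 and 1.25 CPM in SS274, SS287, SS294, SS299 and SS310, and at 14.9, 2.89, 12.2, 1.37 and 1.94 CPM in NS108, NS152, NS165, NS242 and NS745. The distance between the highest SS and the lowest NS value was small, and these rested on 3 and 2 counts. This miRNA too was tested only because of its level in NS, with 2 SS and 5 NS libraries above 1 CPM. Its log2 fold change of -2.93 (SE 0.83) did not pass the quasi-likelihood test (adjusted p = 0.206) but passed the exact test (adjusted p = 0.0602) and DESeq2 (adjusted p = 0.0610). The CPM of SS lay below all NS values for 3 of the 338 miRNAs and above them for 0, together 0.888%. The other 2 were bta-miR-18b and bta-miR-495, a miRNA of the imprinted DLK1-DIO3 cluster. Of the 3, bta-miR-2284d and bta-miR-18b had entered through NS alone, so the filter set part of this count. Among the 252 regroupings of the libraries, 2 part the phenotypes fully, so a few of 338 miRNAs can be parted by chance alone. For bta-miR-495 the ranges were 1.25 to 1.44 CPM in SS and 1.53 to 5.60 CPM in NS, and its log2 fold change was -0.60 (adjusted p = 0.654 by quasi-likelihood in edgeR). With TMM scaling of the CPM, 7 miRNAs did not overlap, 5 lower and 2 higher in SS, and bta-miR-495 and bta-miR-2284d were not among them.

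The family as a whole did not follow these members. Of 48 listed miR-2284 and miR-2285 miRNAs, 18 were tested and 8 had no count in any distal jejunum library. Of the 18, 2 had entered through NS alone and 3 through SS alone. The quasi-likelihood test called 1 of 18 lower and 0 higher in SS (0.592% of all 338 were called), and the exact test 2 lower (2.37% of all). Both were the members that had entered through NS alone. The most abundant, bta-miR-2284x, ranged from 141 to 858 CPM in SS and from 368 to 923 CPM in NS, and bta-miR-2284y had nearly the same counts. The median log2 fold change of the 18 was 0.66, with 13 above 0. It was 0.17 on the library-total scale, with 10 above 0, and without SS294 and SS299 it was 0.09 over the 16 then tested. The rare bta-miR-2285z, which no test called and which had entered through SS alone, was at 1.71, 5.09, 2.02, 0.457 and 1.87 CPM in SS and 0, 0.481, 0.765, 0.686 and 0 CPM in NS (log2 fold change 2.18, adjusted p = 0.206 by quasi-likelihood in edgeR). This rested on 3 to 7 counts per SS library and at most 1 per NS library. In ARS-UCD2.0, MIR2284J lies inside GRIK4, a glutamate receptor gene, and MIR2285Z inside SREK1, a splicing regulator gene.

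Both called miRNAs had their pattern by steer outside the distal jejunum as well. In each of the 6 regions the SS steers and NS745 had at most 10.2 CPM of bta-miR-378b, and NS152, NS165 and NS242 had at least 31.7 CPM. NS108 was at 46.5 to 125 CPM in 5 regions and at 0.620 CPM in the library labelled as its descending colon. The descending colon libraries labelled SS310 (13942283 counts) and NS108 (19346766 counts) had the smallest median absolute difference in log2(CPM + 1) of the 45 pairs. It was 0.35 over 358 miRNAs, against 0.38 for NS108 and NS745 and up to 2.03 in the other pairs. By Pearson correlation this pair was not the closest (r = 0.980, against 0.982 for NS152 and NS165). Whether the descending colon value belongs to steer NS108 was not tested. For bta-miR-2284j, NS745 was at 0 to 0.97 CPM and the SS steers at 0 to 2.41 CPM over the 6 regions, with at most 3 counts per SS library. NS152, NS165 and NS242 were at 2.29 to 11.6 CPM, so this split was less clean than that of bta-miR-378b. In the duodenum SS274 (2.41 CPM) was just below NS165 (2.43 CPM). The descending colon library labelled NS108 was at 0.103 CPM. The SS against NS difference of bta-miR-378b in the distal jejunum was 0.16 above the mean of the other 5 regions on the log2 scale (SE 0.57, adjusted p = 0.996 by quasi-likelihood in edgeR with the steer as a block). For bta-miR-2284j the same difference, distal jejunum minus the other regions, was -1.41 (SE 0.98, adjusted p = 0.827). Neither difference passed the test. The regions share the steers, so they are not further replicates of this comparison.

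**Figure D3:**
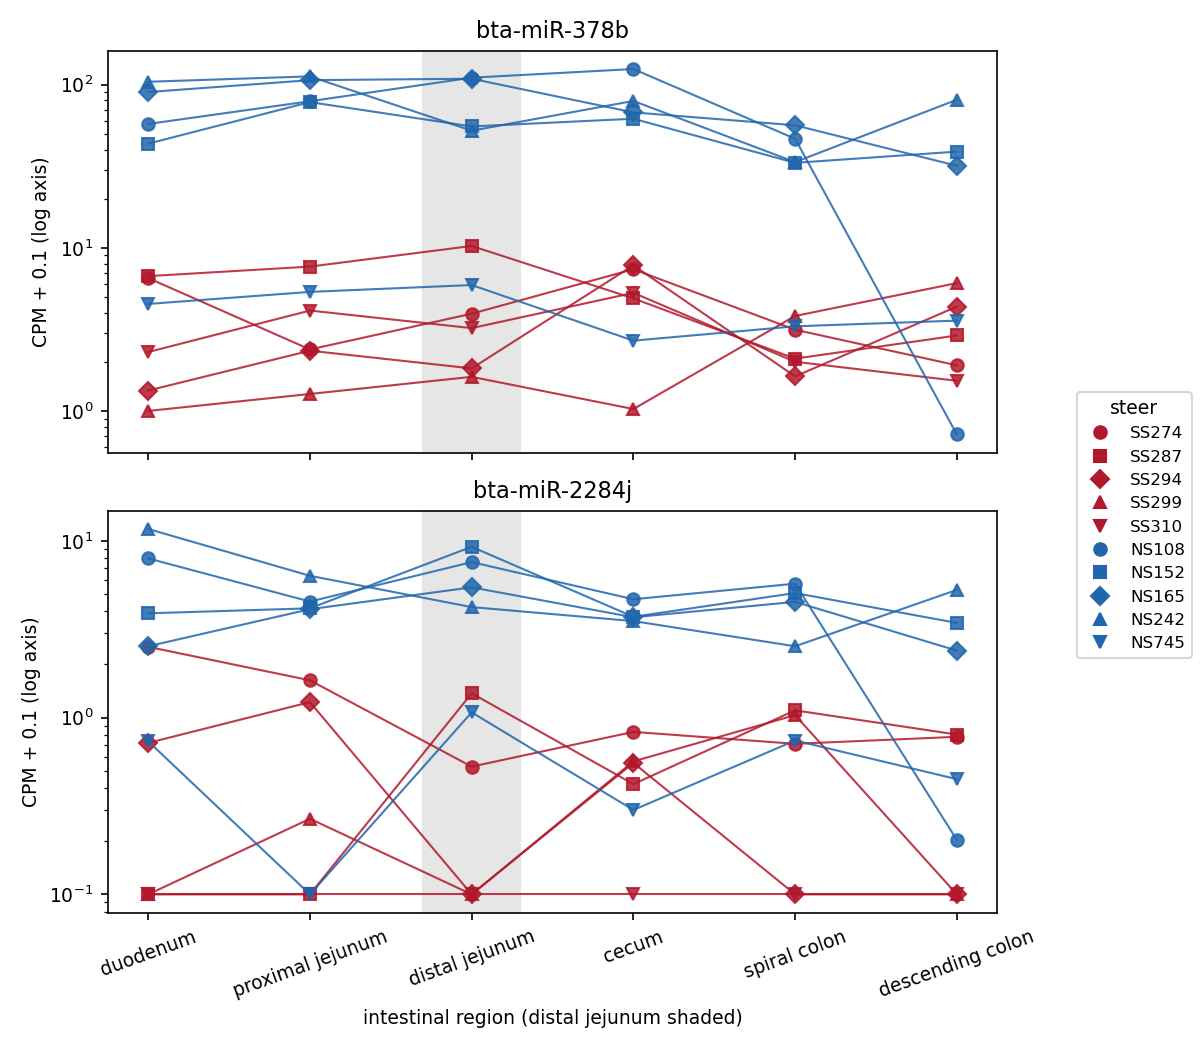
Levels of bta-miR-378b (top) and bta-miR-2284j (bottom) in each steer along the 6 intestinal regions, as CPM + 0.1 on a log y axis; lines join the libraries of a steer, red for SS and blue for NS, and the distal jejunum is shaded. NS745 runs among the SS steers in all regions, and the library labelled NS108 leaves the other NS steers in the descending colon (0.620 CPM of bta-miR-378b).

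Members of the miR-17-92 cluster and its paralogs had negative fold changes throughout, of which 3 passed a test. These clusters are expressed in proliferating cells, and miR-18a is a member of the founding cluster beside MIR17, MIR19A and MIR20A. All 14 tested members had negative log2 fold changes (median -0.76, against 0.06 for all 338), as they did with the RLE or library-total scale. The quasi-likelihood test called 0 of the 14 (0.592% of all 338 were called) and the exact test 2 (2.37% of all), bta-miR-18a and bta-miR-18b. Of the 14, bta-miR-18b was the member that had entered through NS alone, with 2 SS and 5 NS libraries above 1 CPM. The highest level was that of bta-miR-92a, at 948 to 15636 CPM in SS and 6921 to 40127 CPM in NS (log2 fold change -0.64, adjusted p = 0.564 by quasi-likelihood in edgeR). Without SS299 the median of the 14 was -0.60, and without both SS294 and SS299 it was -0.52, with 2 members above 0. Summed CPM of the list were lowest in SS299 (1714), next in SS294 (7856) and highest in NS108 (49515), in which the erythrocyte markers were also highest (1489 CPM).

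Levels of bta-miR-18a were 25.2, 38.2, 8.06, 3.04 and 32.5 CPM in SS274, SS287, SS294, SS299 and SS310, and 84.1, 35.1, 68.8, 40.5 and 135 CPM in NS108, NS152, NS165, NS242 and NS745. The low values were again those of SS294 and SS299, and the groups overlapped at SS287 and NS152. Its log2 fold change was -1.60 (SE 0.45, adjusted p = 0.206 by quasi-likelihood in edgeR), and the exact test and DESeq2 called it (adjusted p = 0.0674 and 0.0221). Without SS294 and SS299 it was -1.22. Its paralog bta-miR-18b had 0.428, 3.82, 0.288, 0 and 3.12 CPM in SS and 9.34, 6.26, 3.82, 5.49 and 3.88 CPM in NS, in the same order of steers. SS287 and NS165 were level at 3.82 CPM, 3 and 5 counts. The log2 fold change of bta-miR-18b was -2.09 (SE 0.67, adjusted p = 0.304 by quasi-likelihood in edgeR), with an adjusted p of 0.0674 in the exact test. MIR18B lies beside MIR20B and MIR106A, which also had lower means in SS. The log2 fold changes were -2.36 for bta-miR-20b (adjusted p = 0.306) and -2.01 for bta-miR-106a (adjusted p = 0.306 by quasi-likelihood in edgeR), and DESeq2 called bta-miR-106a (adjusted p = 0.0863). Without SS294 and SS299 they were -1.95 and -1.60.

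Beside these, 3 further miRNAs were lower in SS by the exact test or DESeq2. The level of bta-miR-296-3p was 20.1, 28.0, 12.1, 8.22 and 22.5 CPM in SS and 198, 39.0, 27.5, 57.6 and 39.8 CPM in NS, so only SS287 reached the lowest NS steer. The level of bta-miR-6123 was 3.42, 8.90, 4.03, 1.22 and 5.62 CPM in SS and 16.8, 10.1, 7.65, 12.3 and 15.5 CPM in NS, with overlap at the same 2 steers, SS287 and NS165. MIR296 and MIR6123 are neighbours in ARS-UCD2.0, inside the same uncharacterized gene LOC107133071. Their log2 fold changes were -1.40 for bta-miR-296-3p and -1.15 for bta-miR-6123 (adjusted p = 0.206 each by quasi-likelihood in edgeR, 0.0812 and 0.0988 in the exact test). Without SS294 and SS299 they were -1.49 and -1.17. DESeq2 alone called bta-miR-6119-5p (log2 fold change -0.82, adjusted p = 0.0897), which ranged from 71.1 to 613 CPM in SS and from 381 to 1113 CPM in NS. With these, 9 miRNAs were called lower by at least 1 of the 3 tests, and all 9 had negative log2 fold changes without SS294 and SS299 (-3.68 to -0.60). The 9 were picked from the same libraries, and 3 of them had entered through NS alone, so the kept sign is no independent support.

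DESeq2 called 5 miRNAs higher in SS, and the levels of 4 of them were highest in SS294, SS299 and SS310 among the SS steers. The related miR-99 and miR-100 miRNAs are known to lower mTOR in human cells. Levels of bta-miR-100 were 876, 806, 11931, 28283 and 6888 CPM in SS274, SS287, SS294, SS299 and SS310, and 4567, 1803, 1135, 1002 and 1910 CPM in NS108, NS152, NS165, NS242 and NS745. SS294, SS299 and SS310 lay above all NS steers, and SS274 and SS287 below all of them. The log2 fold change was 3.72 (SE 1.16, adjusted p = 0.304 by quasi-likelihood in edgeR), and 2.23 with the library total as the scale. The exact test called it (adjusted p = 0.0628), as did DESeq2 (adjusted p = 0.0221). Without SS299 it was 1.84 (exact test of edgeR, adjusted p = 0.380) and without SS294 and SS299 it was 0.54 (adjusted p = 0.885).

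The same steers were high for bta-miR-99a-5p and bta-miR-99b. The level of bta-miR-99a-5p was 178, 231, 1322, 3064 and 1104 CPM in SS and 1076, 353, 284, 189 and 606 CPM in NS. That of bta-miR-99b was 1502, 2161, 9529, 18557 and 8090 CPM in SS and 8730, 2630, 2019, 1352 and 3600 CPM in NS. SS294, SS299 and SS310 lay above all NS steers for bta-miR-99a-5p, and NS108, the highest NS steer for all 3 members, lay above SS310 for bta-miR-99b. DESeq2 called both (adjusted p = 0.0897 and 0.0923), at edgeR log2 fold changes of 2.64 and 2.48, which were 1.24 and 1.12 on the library-total scale. The median of the 3 members was 2.64, 1.01 without SS299 and 0.19 without SS294 and SS299. Their precursors lie beside those of let-7 and miR-125 miRNAs, and the 10 tested miRNAs of these 3 clusters had a median log2 fold change of 0.91, 0.26 without SS299 and -0.03 without both. On the library-total scale it was 0.10, with 5 of the 10 above 0, against 9 after TMM. The quasi-likelihood test called 0 of the 10 (0.592% of all 338) and the exact test 1 (2.37% of all), bta-miR-100.

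Members of the imprinted DLK1-DIO3 cluster, which are made from the maternal chromosome in mammals, were partly high in the same steers. The level of bta-miR-409a was 3.85, 12.7, 43.5, 53.0 and 49.4 CPM in SS and 29.9, 8.18, 12.2, 2.74 and 11.6 CPM in NS. SS294, SS299 and SS310 were above all NS steers. Its log2 fold change of 2.48 (adjusted p = 0.306 by quasi-likelihood in edgeR; DESeq2 adjusted p = 0.0897) was 1.54 without SS299 and 0.87 without SS294 and SS299. The level of bta-miR-379 was more even, at 39.8, 52.1, 50.1, 45.5 and 85.0 CPM in SS and 16.8, 27.4, 48.9, 19.9 and 31 CPM in NS, where NS165 lay above SS274 and SS299. Its log2 fold change was 1.45 (adjusted p = 0.304 by quasi-likelihood in edgeR; DESeq2 adjusted p = 0.0863), and 0.92 without SS294 and SS299. Of 52 listed miRNAs of the cluster 30 were tested, 3 of them through NS alone and 1 through SS alone, and 0 were called by the quasi-likelihood test (0.592% of all 338) or the exact test (2.37% of all). Their median log2 fold change was 0.23, against -0.22 on the library-total scale, and bta-miR-127, the most abundant, had 1589 to 3521 CPM in SS and 1917 to 3254 CPM in NS.

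**Figure D4:**
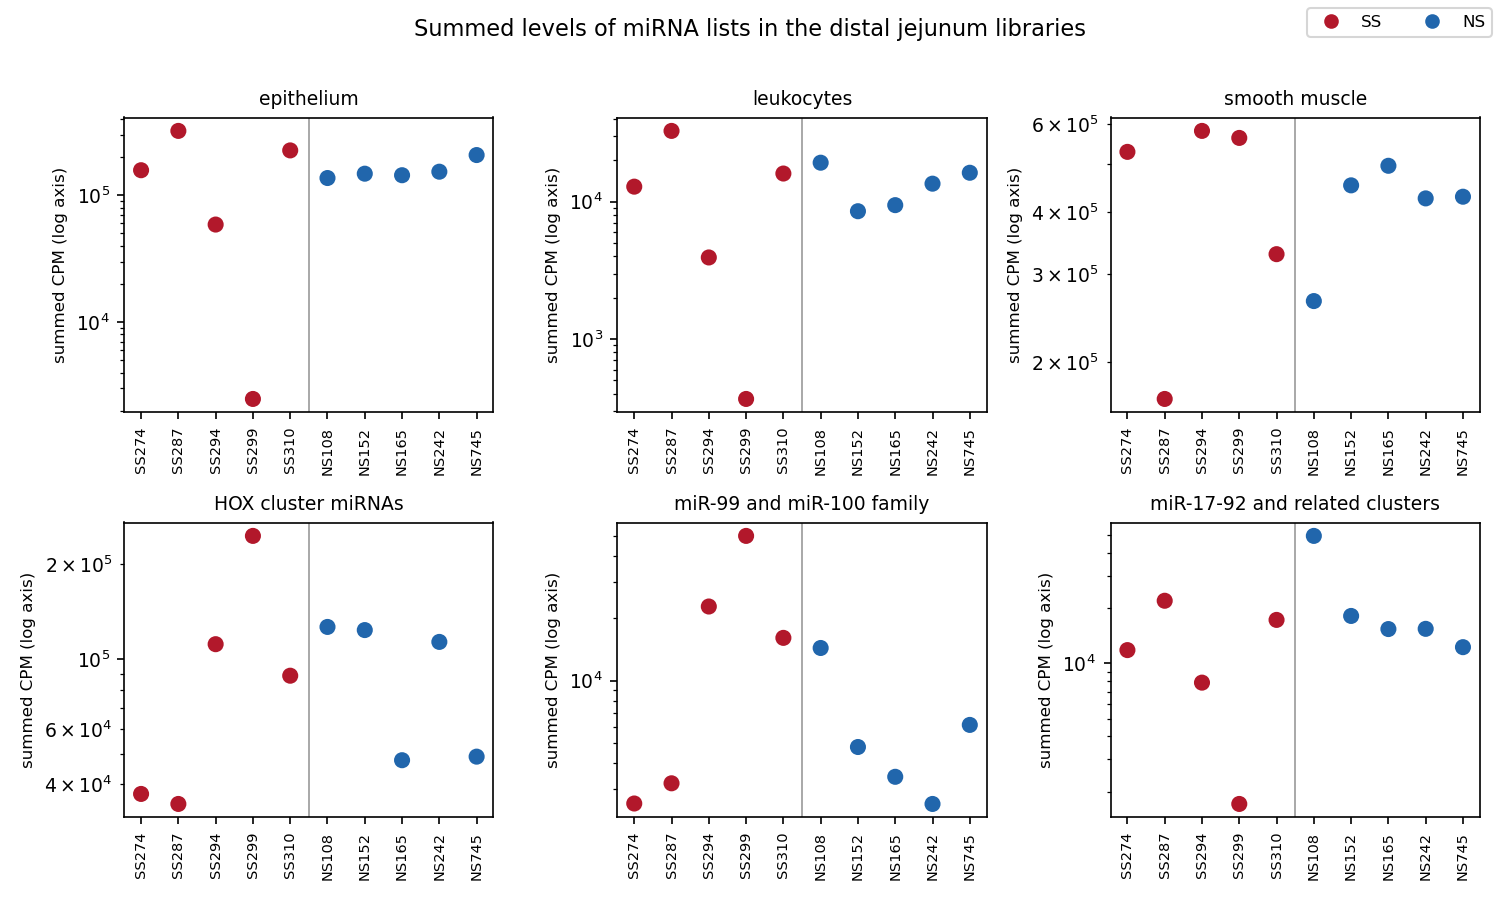
Summed CPM of 6 miRNA lists in each distal jejunum library, on log y axes, with the 5 SS libraries (red) left of the 5 NS libraries (blue). SS299 has the lowest epithelial (2477), leukocyte (367) and miR-17-92 (1714) sums and the highest sums of the HOX cluster miRNAs (246391) and the miR-99 and miR-100 family (49905).

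The markers of cell types held 0 calls in either direction by the quasi-likelihood test (0.592% of all 338) or the exact test (2.37% of all). The 5 smooth muscle miRNAs tested had a median log2 fold change of 1.10, which was 0.10 on the library-total scale, 0.21 without SS299 and -0.25 without SS294 and SS299. The most abundant miRNA of the tissue, bta-miR-143, made up 43.2% ± 17.9 of the counts in SS and 41.1% ± 8.71 in NS (SD, n = 5 each, exact two-sided permutation p = 0.817). The 8 epithelial miRNAs had a median of -0.07, and 0.44 without SS294 and SS299. The second most abundant, bta-miR-192, made up 11.8% ± 9.59 in SS and 12.2% ± 3.0 in NS (exact permutation p = 0.968). The adjusted p was 0.968 for each of the 10 most abundant miRNAs, whose mean shares differed by less than the SD between SS steers. The other 8 of these were bta-miR-10b, bta-miR-10a, bta-miR-26a, bta-miR-27b, bta-miR-26c, bta-miR-215, bta-miR-21-5p and bta-miR-148a. The HOX cluster miRNAs, of which bta-miR-10b made up 6.26% ± 6.41 in SS and 4.45% ± 2.36 in NS, had a median log2 fold change of 1.31, 0.14 on the library-total scale with 2 of 4 above 0, -0.14 without SS299 and -1.99 without SS294 and SS299. In that last fit bta-miR-10b and bta-miR-10a were at -0.78 and -0.83, bta-miR-196a at -3.15 and bta-miR-196b at -5.79. Counts of bta-miR-196b were 2183, 2187 and 435 in SS294, SS299 and NS152, and at most 7 in the other libraries. The 6 leukocyte miRNAs had a median of 0.00, the 5 mesenchymal ones -0.27, the 3 erythrocyte ones -0.22, the 7 neuronal ones 0.02, the 2 endothelial ones 0.04 and the 2 enteroendocrine ones 0.41. On the library-total scale the mesenchymal and neuronal medians were -0.56 each and the erythrocyte median was -0.82, and without SS294 and SS299 the leukocyte median was 0.53. The number of miRNAs with CPM above 1 was 325 ± 37.3 in SS and 338 ± 22.3 in NS (SD, n = 5 each, exact permutation p = 0.476), with the lowest, 270, in SS299.

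Among miRNAs that no test called, the 5 with the smallest p of the quasi-likelihood test in each direction are given as values only. Those with positive log2 fold changes were bta-miR-2285z (2.18), bta-miR-2431-3p (2.33), bta-miR-1271 (2.16), bta-miR-224 (1.21) and bta-miR-125b (1.69), with adjusted p of 0.206 to 0.479 in edgeR. Without SS294 and SS299 those of bta-miR-2431-3p, bta-miR-1271, bta-miR-224 and bta-miR-125b were 0.33, 0.79, 0.32 and -0.25. Those with negative values were bta-miR-874 (-1.16), bta-miR-2889 (-1.97), bta-miR-2313-3p (-2.51), bta-miR-20b (-2.36) and bta-miR-193a (-2.25), with adjusted p of 0.306 in edgeR. Of these 10, bta-miR-2285z had entered through SS alone, and bta-miR-2313-3p and bta-miR-193a through NS alone.

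Whether the difference between SS and NS in the distal jejunum was another than elsewhere in the same steers was tested with the steer as a block. Against the mean of the other 5 regions, 1 of 381 miRNAs passed an FDR of 10% (0.262%), and against the proximal jejunum 1 of 368 (0.272%). In both this was bta-miR-874, whose gene lies inside KLHL3. In the distal jejunum bta-miR-874 was at 12.8, 22.9, 14.1, 6.39 and 15.6 CPM in SS and 120, 41.9, 21.4, 35 and 20.4 CPM in NS. All SS steers except SS287 were below all NS steers. In the proximal jejunum it was at 19.1, 106, 42.7, 29.9 and 17.7 CPM in SS and 18.5, 19.9, 5.60, 18.7 and 13.9 CPM in NS, where SS287, SS294 and SS299 were above all NS steers. The log2 fold change of SS over NS in the distal minus that in the proximal jejunum was -2.60 (SE 0.46, adjusted p = 0.0238) and minus the mean of the other 5 regions it was -1.85 (SE 0.45, adjusted p = 0.0691, both by quasi-likelihood in edgeR). Without the steer as a block the first was -2.86 (adjusted p = 0.0595) and the second -2.12 (adjusted p = 0.132), so the second call was lost.

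The interaction calls depended on single steers. Against the other 5 regions the call of bta-miR-874 was lost in edgeR when any steer other than NS165 was left out, at differences of -1.97 to -1.58, and when the descending colon libraries of NS108 and SS310 were left out (adjusted p = 0.104). Against the proximal jejunum it was lost without SS299 (-2.41, adjusted p = 0.120) or NS165 (-2.51, adjusted p = 0.115), and without SS294 and SS299 together (-2.43, adjusted p = 0.172). After bta-miR-874 the smallest adjusted p was 0.269 against the other regions, where bta-miR-363, a miRNA of the X-linked paralog of miR-17-92, had a difference of -2.09 (SE 0.63). The levels of bta-miR-363 in the distal jejunum were 13.3, 48.3, 11.2, 0.913 and 29.997 CPM in SS and 239, 37.1, 25.2, 76.8 and 18.4 CPM in NS. Of 381 miRNAs, 25 had an unadjusted p under 0.05 against the other regions, and of 368, 24 did against the proximal jejunum. Other tools were not run for these interactions.

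**Figure D5:**
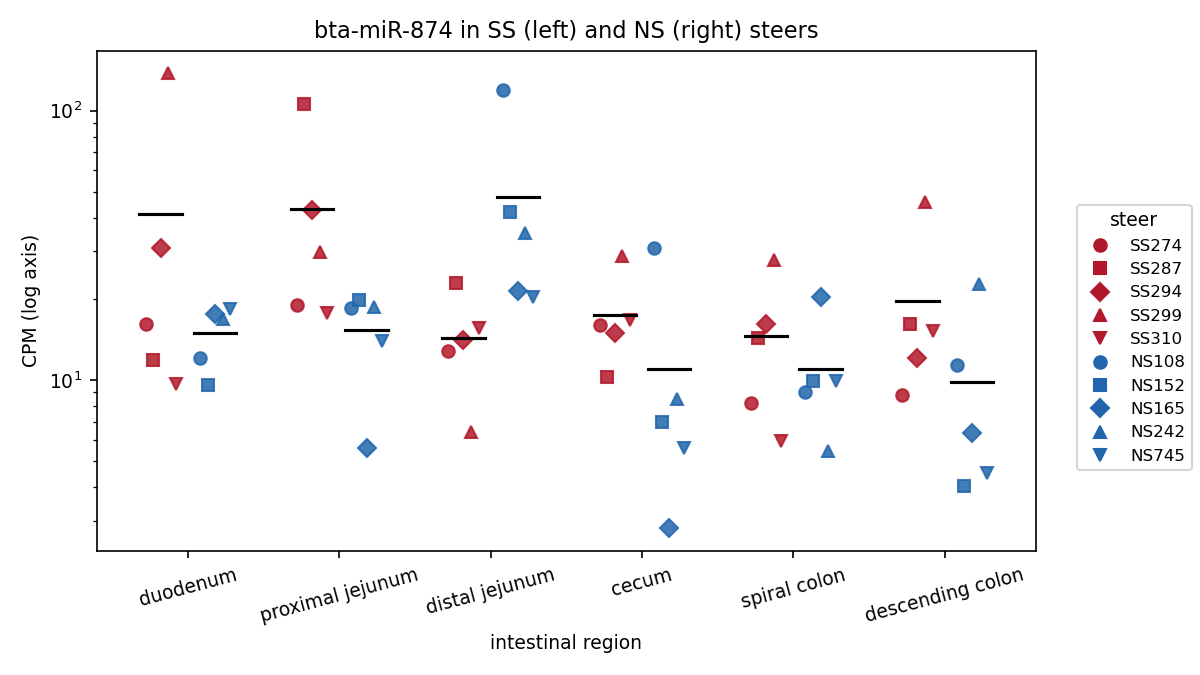
Levels of bta-miR-874 in CPM (log y axis) in the 6 intestinal regions, with SS steers (red) left of NS steers (blue) in each region; each symbol is a steer and each bar a group mean. In the distal jejunum 4 of the 5 SS steers lie below all NS steers, and in the proximal jejunum 3 of the 5 SS steers lie above all NS steers.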

How the data were processed

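Tissue of the distal jejunum of 5 SS and 5 NS steers was used, with the other 50 libraries of the series for the tests between regions. Per the paper's methods, the authors trimmed and filtered the reads and ran sRNAtoolbox at its default parameters. They deposited raw read counts of 608 bovine miRNAs, the unit used here. The submitters' notes also name Bowtie and edgeR, with no version. Build and miRBase release are not given in the sources used. Totals per library were 535373 to 6569141 counts, and reads carry no molecular identifiers. All pairs of libraries within a phenotype differed by more than sampling noise (chi-square over its degrees of freedom from 128), so each counted as 1 sample. The p-values of the comparison within the distal jejunum measure the spread between steers. Those of the tests with the steer as a block measure the spread between regions within steers.

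CPM were computed with the library total as the denominator. miRNAs with CPM above 1 in at least 3 libraries of either phenotype were tested with edgeR 4.0.16 in R 4.3.3 (TMM, quasi-likelihood test, FDR of 10% after Benjamini-Hochberg adjustment). The exact test of edgeR, which the authors used, DESeq2 1.42.0, limma-voom (limma 3.58.1), RLE scaling, library total alone, filterByExpr, no filter, an FDR of 5%, all 60 libraries in 1 fit, thinning to 535373 counts and each steer left out in turn were alternatives. Fits without SS294 and SS299, with the epithelial list as a covariate, or without the descending colon libraries of NS108 and SS310 were chosen after seeing the data. Tests between regions had the steer as a block, as the labels give the same steers in every region. Deviations from the group means correlated by a mean of 0.130 between distal jejunum libraries and others of the same steer (35 of 50 pairs positive) and by -0.012 between different steers. Single values were compared by exact permutation tests over all 252 regroupings. The scripts were tested on simulated data.

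The text names 8 miRNAs listed by the study for this region, others past the FDR in any of 3 tests, the 5 with the smallest p in each direction, the 10 most abundant, those that did not overlap, and members of the lists. Members and lists were chosen with earlier results of these data known. Of 19 miRNAs looked up in the RefSeq table of ARS-UCD2.0, 18 matched; it was used for names of neighbouring genes only. The FDR was adjusted over all miRNAs tested.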

Additional observations from a re-analysis of the deposited data

Results flagged for a closer look

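Values that stood far from the other steers of their phenotype were sought on the log2 scale with Dixon's criterion over 74 groups of 5 libraries, of which chance alone picks about 1 in 20. It picked 11, of which 4 were of SS299 and 4 of NS108. The groups overlap, as bta-miR-143 is part of the smooth muscle sum and bta-miR-192 of the epithelial sum, so the picks are not independent. NS745 was low for bta-miR-378b (5.82 CPM), and high for bta-miR-192 (174066 CPM) and for the summed epithelial list (207412 CPM). SS299 was low for bta-miR-148a (2430 CPM) and for the summed enteroendocrine (67.4 CPM), mesenchymal (1263 CPM) and neuronal (98.8 CPM) lists. NS108 was low for bta-miR-143 (262815 CPM) and the summed smooth muscle list (264761 CPM), and high for the miR-99, let-7 and miR-125 clusters (43940 CPM) and the miR-17-92 list (49515 CPM). It was also the shallowest library.

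The SS against NS difference of bta-miR-874 in the distal jejunum passed a test against that in the other regions. Both calls were lost when some single steers were left out, and the call against the other 5 regions also without the steer as a block. On the log2 scale, the distal jejunum minus the mean of the other 5 regions was -1.85 (adjusted p = 0.0691) and minus the proximal jejunum -2.60 (adjusted p = 0.0238, both edgeR's quasi-likelihood test).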

How the results depend on the processing

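The 5 steers a group limit what can be called, and miRNAs below a few CPM rest on single counts. The number of DE miRNAs depended on the test. Against 2 in the quasi-likelihood test of edgeR it was 8 in the exact test, 14 in DESeq2, and 0 in limma-voom (lowest adjusted p of 0.135, with 25 under 0.05 before adjustment). It was 1 with filterByExpr, with an FDR of 5% or with thinned counts. With all 60 libraries in 1 fit, which had no steer term and so took libraries of a steer as independent, it was 5. It was again 2 with RLE scaling, the library total, no filter or the epithelial covariate. Leaving out each steer gave 0 to 2 calls in the quasi-likelihood test (0 without SS274, SS294 or SS310, smallest adjusted p = 0.107 to 0.119) and 2 to 17 in the exact test (2 without SS294, SS299 or NS108, 4 without NS152 or NS242, 10 without NS165, 11 without SS274, 15 without SS287 and 17 without SS310). Without SS294 and SS299 it was 0, and 1 in the exact test. With TMM-scaled CPM 7 miRNAs did not overlap, against 3.

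The interaction against the other 5 regions called 0 miRNAs without the replicate block, without SS294 and SS299, without the descending colon libraries of NS108 and SS310, and without any steer except NS165 (range 0 to 1). That against the proximal jejunum called 0 without SS294 and SS299 and 0 to 1 with each steer left out. Without the replicate block the difference of bta-miR-874 was -2.12 (adjusted p = 0.132, edgeR) against the other regions and -2.86 against the proximal jejunum; pairing by steer changed no other call. No paired analysis was possible because SS and NS share no steer, for the comparison within the distal jejunum. The fold changes of bta-miR-378b, bta-miR-2284j, bta-miR-2284d, bta-miR-99b, bta-miR-409a, bta-miR-99a-5p, bta-miR-18a and bta-miR-100 kept their direction under each of these settings that could be fitted. The study had called these miRNAs from the same libraries, so a kept direction is no independent support. Not all of them were called by the exact test as run here. Of them, bta-miR-2284j and bta-miR-2284d had entered through NS alone. Without SS294 and SS299 the log2 fold changes of bta-miR-99a-5p and bta-miR-99b were 0.09 and 0.19. The causes of the changes between settings were not tested.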
